A study of Mus musculus with 12 samples.

Results

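A group of 9 genes typical of forebrain, thalamic or midbrain neurons was followed across 12 libraries of mouse cerebellum: Ddn, Nrgn, Icam5, Cckbr, Chrm1, Lhx2, Tcf7l2, Sox14 and Pou4f2. They are 9 of the 18394 genes in the count table, all 9 were found there, and they were selected on their levels in these same libraries and on how those levels moved together. Their levels and their correlation with each other are therefore given as a description, with no test. The libraries came from 6 wild-type mice (WT) and 6 mice labelled cKO, a knockout of Crfr1 made with the Δα6-Cre driver. Crfr1 (Crhr1 in the table) encodes a receptor for the stress peptide corticotropin-releasing factor, and the driver is named after the GABA-A receptor subunit α6, a product of cerebellar granule cells. The labels give neither age, sex nor strain, and name no group that carries the driver alone, so effects of the driver and of the Crfr1 deletion cannot be told apart. RNA was taken from freshly dissected cerebella and sequenced as stranded mRNA libraries, with all samples multiplexed together.

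In the mouse brain the cerebellum lies just behind the inferior colliculus of the midbrain, close to the caudal end of the cortex. Brain regions keep their own sets of transcription factors and synaptic proteins into adulthood, so that a neuron's regional origin can be read from its RNA. In bulk tissue, however, fewer cells of a type and less RNA per cell cannot be told apart, and neither can a small share of strongly expressing cells and a low level in many. Of the genes, 6 belong mainly to forebrain neurons. Ddn encodes dendrin, a protein of dendrites and postsynaptic sites, and Nrgn encodes neurogranin, a postsynaptic protein that binds calmodulin. Icam5 encodes telencephalin, an adhesion molecule on the dendrites of telencephalic excitatory neurons. Cckbr and Chrm1 encode G-protein-coupled receptors, for cholecystokinin and for acetylcholine (the muscarinic M1 receptor). Lhx2 encodes a LIM-homeodomain factor that specifies cortical identity. The other 3 are transcription factors of thalamic and midbrain neurons. Tcf7l2 carries the transcriptional output of Wnt signalling and marks the thalamus and habenula, and it is also found in oligodendrocytes as they mature. Sox14 marks GABAergic neurons of the thalamus, pretectum and midbrain, and Pou4f2, a POU-domain factor, is known from retinal ganglion cells and the superior colliculus.

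The 9 genes lie at separate places in the genome (mm10, GENCODE M21). Ddn is at chr15:98803777-98809490, Nrgn at chr9:37544492-37552904, Icam5 at chr9:21032073-21039036, Cckbr at chr7:105425731-105470898 and Chrm1 at chr19:8663789-8683587. Lhx2 is at chr2:38339281-38369733, Tcf7l2 at chr19:55741820-55933654, Sox14 at chr9:99874106-99876170 and Pou4f2 at chr8:78433010-78436645. An annotated non-coding gene overlaps Ddn (B130046B21Rik), Lhx2, Icam5 and Chrm1 on the opposite strand, and Ppnr lies within Tcf7l2 on the same strand. Whether counting used strand is not given in the sources used here, so reads of these neighbours could be counted with the 5 genes. RefSeq promoters (GRCm38.p6) matched 7 of the 9 genes, with 9 windows of 250 bases upstream of a start site. Because the 9 genes move together across libraries, 1 window for each of the 4 transcription factors is shown, 5′ to 3′ on the gene's strand. Capitals mark the only match in these 4 windows to any motif searched, ATTGTT, the reverse complement of the SOX core AACAAT.
Lhx2, chr2:38339031-38339280, plus strand: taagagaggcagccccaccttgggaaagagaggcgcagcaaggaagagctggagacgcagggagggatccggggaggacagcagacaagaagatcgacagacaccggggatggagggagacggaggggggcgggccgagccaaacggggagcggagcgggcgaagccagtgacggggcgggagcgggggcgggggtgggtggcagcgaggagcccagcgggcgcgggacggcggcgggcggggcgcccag
Tcf7l2, chr19:55741560-55741809, plus strand: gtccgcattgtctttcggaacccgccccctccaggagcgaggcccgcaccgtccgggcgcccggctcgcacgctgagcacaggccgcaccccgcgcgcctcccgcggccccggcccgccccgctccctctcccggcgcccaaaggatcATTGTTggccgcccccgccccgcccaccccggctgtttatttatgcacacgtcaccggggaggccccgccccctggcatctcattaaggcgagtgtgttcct
Sox14, chr9:99876171-99876420, minus strand: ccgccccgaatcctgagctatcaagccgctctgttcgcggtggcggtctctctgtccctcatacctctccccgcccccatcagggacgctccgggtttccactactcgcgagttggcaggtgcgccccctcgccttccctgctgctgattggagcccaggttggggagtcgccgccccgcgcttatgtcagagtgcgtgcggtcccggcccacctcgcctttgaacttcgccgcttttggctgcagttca
Pou4f2, chr8:78436648-78436897, minus strand: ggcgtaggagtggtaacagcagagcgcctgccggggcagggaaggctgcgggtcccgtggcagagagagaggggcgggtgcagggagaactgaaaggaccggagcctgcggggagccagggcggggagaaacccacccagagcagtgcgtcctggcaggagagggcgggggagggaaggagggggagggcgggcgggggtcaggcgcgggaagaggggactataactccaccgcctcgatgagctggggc
These 4 windows are rich in G and C, against a median of 52.4% over all promoters. They stand at 72.8% for Lhx2, 72.8% for Tcf7l2, 65.6% for Sox14 and 70.8% for Pou4f2. The second windows of Lhx2 and Tcf7l2, not printed, stand at 68.4% and 40.8%, the latter below that median. In all, 4 motifs were searched on both strands. The homeodomain core TAATTA was found in 0 of the 9 member windows and in 4.84% of all 32851 promoters, and the SOX core AACAAT in 1 of 9 and 9.42%. ATCAAAG, as bound by TCF and LEF factors, was found in 0 of 9 and 3.21%, and the TATA box TATAAA in 1 of 9 (the second Tcf7l2 window) and 12.4%. No motif searched was in more than 1 of the 9 windows, which describes these stretches alone.

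The libraries held 23.8 to 62.1 M counts in WT (median 31.0 M) and 32.3 to 58.7 M in cKO (median 52.1 M). Levels are given in CPM, counts per 1e6 counts after scaling library sizes by TMM. Crhr1, the gene named as knocked out, was at 91.6 to 101.6 CPM in WT and 88.7 to 104.8 CPM in cKO, 97.6 ± 4.31 and 98.8 ± 6.00 CPM (SD, n = 6 each), with no call (log2 fold change 0.02, adjusted p = 0.889, edgeR). Its counts per gene therefore do not check the genotype labels, and the labels do not say which part of the gene was deleted. Gabra6, the α6 gene, averaged 813 ± 56.1 CPM in WT and 623 ± 30.0 CPM in cKO (SD, n = 6 each) and fell (log2 fold change -0.38, SE 0.04, adjusted p = 1.45e-05, edgeR). Markers of cerebellar neurons were abundant in every library, with the 18 genes of that list summing to 13975 to 14536 CPM in WT and 13079 to 14350 CPM in cKO. The 9 forebrain and midbrain genes summed to 19.2 to 68.9 CPM in WT and 31.4 to 90.4 CPM in cKO.

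Among the forebrain genes, Ddn had the largest ratio of highest to lowest library. In WT it ran from 0.716 CPM (WT 1) through a median of 1.11 to 3.28 CPM (WT 5), and in cKO from 2.35 CPM (cKO 6) through a median of 3.68 to 12.1 CPM (cKO 1). Of the 6 cKO libraries, 4 lay above the highest WT library, and cKO 1 stood far above the other 5. Between the extreme libraries, WT 1 and cKO 1, Ddn differed 16.9-fold (95% counting interval 10.4 to 29.4). Counting intervals cover counting error only, not differences between animals.

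Nrgn was the most abundant of the 9 genes. It ran from 9.88 CPM (WT 2) through a median of 19.0 to 38.9 CPM (WT 5) in WT, and from 16.0 CPM (cKO 4) through a median of 32.4 to 48.3 CPM (cKO 1) in cKO. WT 5 was level with cKO 2 at 38.7 CPM, and cKO 4 fell below the WT median. Icam5 ranged from 0.419 CPM (WT 2) to 1.48 CPM (WT 5) in WT, median 0.698, and from 0.730 CPM (cKO 4) to 2.78 CPM (cKO 1) in cKO, median 1.24. The adhesion molecule thus spanned a 6.65-fold range (counting interval 3.63 to 13.3), with overlapping groups.

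Of the receptors, Cckbr was between 0.716 CPM (WT 1) and 2.80 CPM (WT 5) in WT, median 1.10, and between 1.05 CPM (cKO 4) and 2.69 CPM (cKO 1) in cKO, median 1.96. It was the only one of the 9 genes whose highest library was a WT one. Chrm1 was between 0.384 CPM (WT 2) and 1.64 CPM (WT 5) in WT, median 0.667, and between 0.767 CPM (cKO 6) and 2.78 CPM (cKO 1) in cKO, median 1.22. Again WT 5 sat among the upper cKO libraries. Lhx2 ran from 0.126 CPM (WT 1, 3 counts) through a median of 0.400 to 1.35 CPM (WT 5) in WT, and from 0.499 CPM (cKO 4) through a median of 0.862 to 1.89 CPM (cKO 1) in cKO. Its lowest value rests on so few counts that the 14.9-fold range has a counting interval of 4.88 to 74.4.

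The thalamic and midbrain factors followed the same libraries. Tcf7l2 was at 6.14 CPM (WT 2) to 18.0 CPM (WT 5) in WT, median 10.5, and at 8.69 CPM (cKO 4) to 23.0 CPM (cKO 3) in cKO, median 16.0. Here cKO 3, not cKO 1, was the highest. Sox14 was at 0.0842 CPM (WT 1, 2 counts) to 0.598 CPM (WT 5) in WT, median 0.274, and at 0.339 CPM (cKO 4) to 0.712 CPM (cKO 1) in cKO, median 0.537. Pou4f2 was at 0.0698 CPM (WT 2, 2 counts) to 0.882 CPM (WT 5) in WT, median 0.342, and at 0.267 CPM (cKO 4) to 0.999 CPM (cKO 3) in cKO, median 0.760. Both factors were thus detected in all 12 libraries, though at 2 counts in the lowest.

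**Figure D1:**
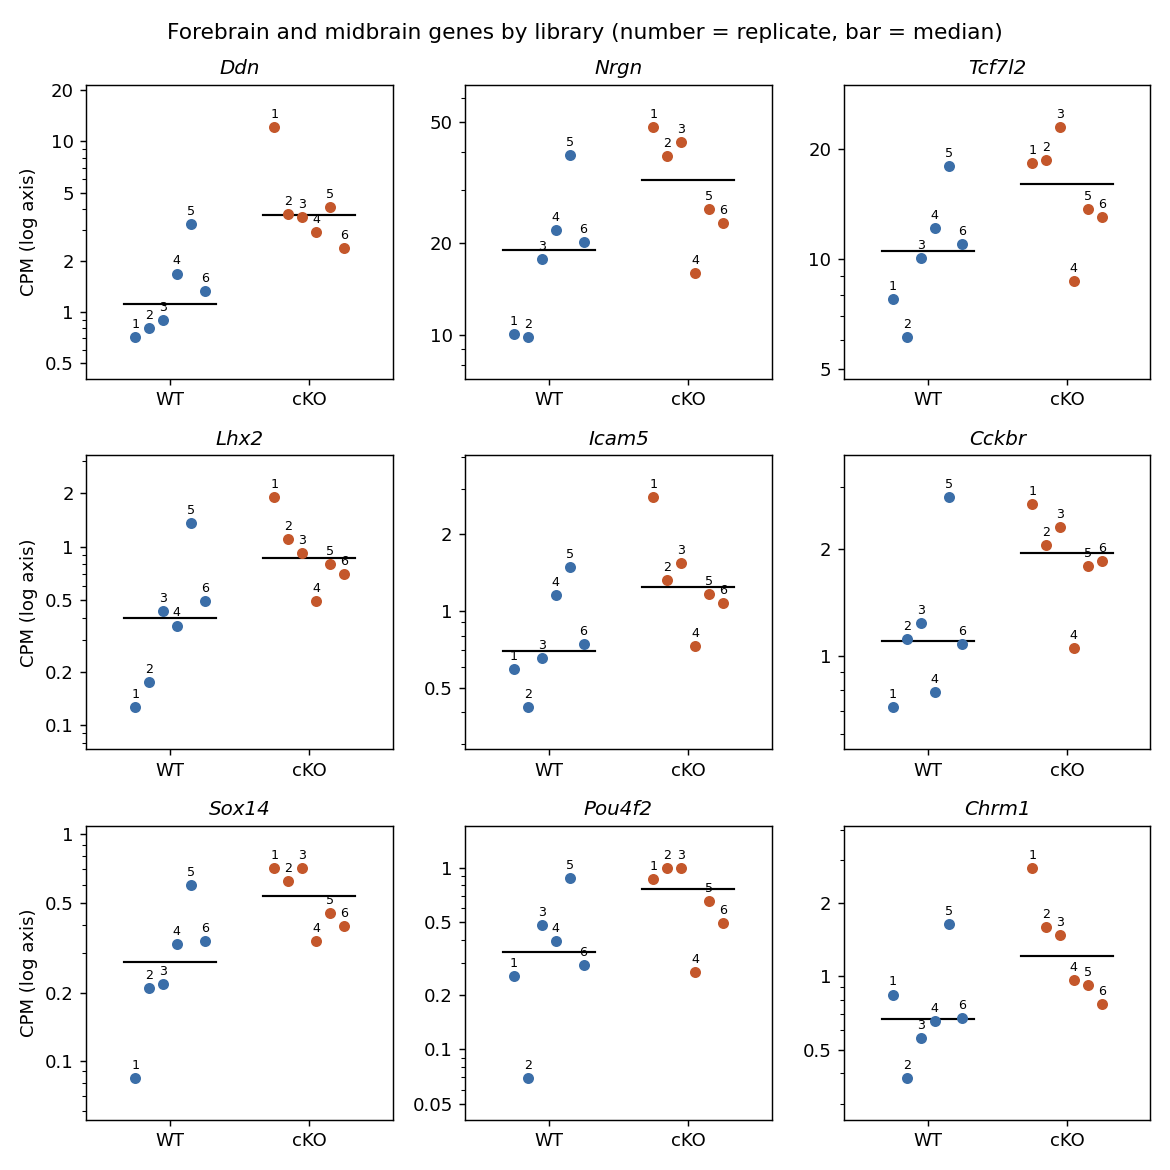
Level of each of the 9 genes in CPM (logarithmic y axis) in the 6 WT and 6 cKO libraries. Points are libraries with their replicate number, and bars are group medians. WT 5 is the highest WT library in all 9 panels, and cKO 1 is the highest cKO library in 7 of them, such as Ddn at 12.1 CPM.

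WT 5 was the highest WT library for all 9 genes. The lowest WT library was WT 1 for Ddn, Lhx2, Cckbr and Sox14 and WT 2 for the rest. In cKO, cKO 4 was the lowest library for 7 genes and cKO 6 for Ddn and Chrm1. Over all 12 libraries the highest was cKO 1 for 6 genes, cKO 3 for Tcf7l2 and Pou4f2, and WT 5 for Cckbr. The groups overlapped for each of the 9.

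All 9 genes passed the filter on low counts, whose cutoff was 0.238 CPM in at least 6 libraries. Every cKO library lay above that cutoff for every gene, but only 4 WT libraries did so for Lhx2, 3 for Sox14 and 5 for Pou4f2. The genes varied strongly between animals of one genotype. Their SD of log2 CPM within groups was 0.52 (Tcf7l2) to 0.96 (Pou4f2), against a median of 0.08 over all tested genes.

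Per kilobase of exon, Nrgn was at 18.0 ± 8.92 CPM (SD over 12 libraries) and Tcf7l2 at 1.52 ± 0.584. Ddn followed at 0.828 ± 0.816, Cckbr at 0.568 ± 0.254 and Icam5 at 0.386 ± 0.215 CPM per kilobase. Sox14, Pou4f2, Chrm1 and Lhx2 closed the order at 0.202 ± 0.0993, 0.173 ± 0.0995, 0.170 ± 0.103 and 0.168 ± 0.117 CPM per kilobase. By the SD over libraries only Nrgn stood apart from its neighbour. Within libraries Nrgn lay above Tcf7l2 in 12 of 12, Tcf7l2 above Ddn in 11, Icam5 above Sox14 in 12 and Cckbr above Icam5 in 10. Sox14 lay above Pou4f2 in 9 of 12, Pou4f2 above Chrm1 in 7, Ddn above Cckbr in 6 and Chrm1 above Lhx2 in 5, so the order of these pairs changed between libraries.

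Across the 12 libraries the 9 genes moved together. Pearson's r of log2 CPM ranged from 0.693 (Sox14 and Chrm1) to 0.975 (Nrgn and Tcf7l2) over the 36 pairs, with a median of 0.853, and the median Spearman's rho was 0.874. Within WT alone the median r was 0.799 (0.425 to 0.981) and within cKO 0.872 (0.411 to 0.987), so the relation was present inside each genotype. The 15 pairs of forebrain genes had a median r of 0.864, the 3 pairs of thalamic and midbrain genes 0.861, and the 18 mixed pairs 0.842. These points share libraries and depth, and the genes were chosen with this relation known.

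**Figure D2:**
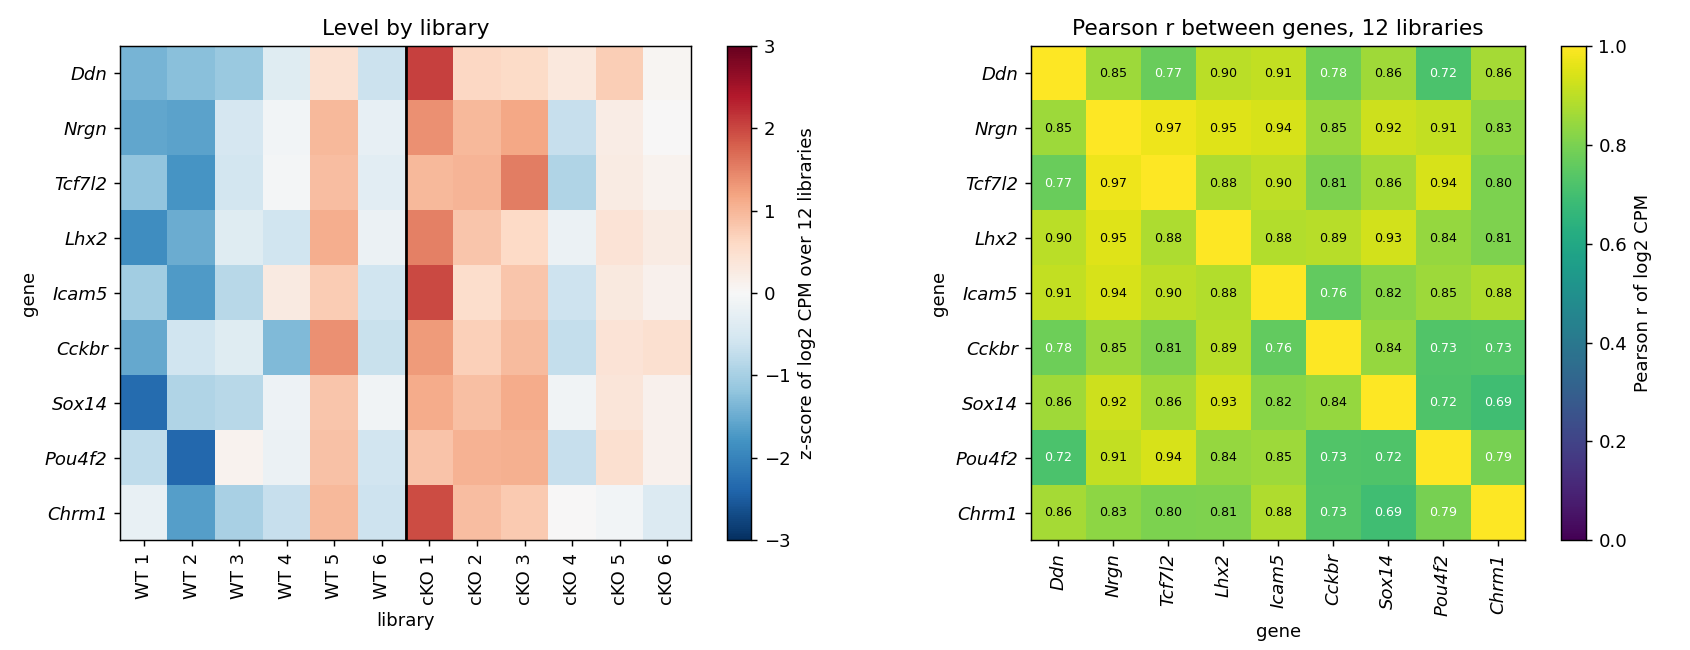
Left, level of the 9 genes (rows) in the 12 libraries (columns) as z-scores of log2 CPM, with a line between WT and cKO. Right, Pearson's r of log2 CPM between genes over the 12 libraries, from 0.693 to 0.975, with no pair near 0.

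A single score per library, the mean z-score of the 9 genes, was highest in cKO 1 (1.46), cKO 3 (0.96), WT 5 (0.92) and cKO 2 (0.84). It was lowest in WT 2 (-1.48) and WT 1 (-1.32). Each gene correlated with the mean of the other 8 at r = 0.854 (Cckbr) to 0.980 (Nrgn). Leaving out the 2 libraries farthest from the median, cKO 1 and WT 2, gave 0.744 (Chrm1) to 0.969 (Nrgn). Sequencing depth followed the score weakly over all libraries, with r = 0.27 against log2 total counts, 0.25 within WT and -0.78 within cKO, where the deeper libraries had the lower scores.

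The balance of forebrain genes to thalamic and midbrain genes differed in some libraries. In cKO 1 the mean z-score was 1.69 for the 6 forebrain genes and 0.98 for Tcf7l2, Sox14 and Pou4f2. In cKO 3 these values were 0.82 and 1.23. They lay close together in others, such as WT 5 (0.935 and 0.879) and cKO 5 (0.331 and 0.361). The ratio of Ddn to Tcf7l2 in CPM was 0.0894 (WT 3) to 0.182 (WT 5) in WT, median 0.125, and 0.157 (cKO 3) to 0.663 (cKO 1) in cKO, median 0.251. In cKO 4, the lowest of the cKO libraries for 7 of the 9 genes, this ratio was 0.336, the second highest of all 12. Nrgn kept closer to Tcf7l2, with a CPM ratio of 1.30 to 2.16 in WT and 1.78 to 2.64 in cKO. Ddn also followed the other 8 genes less closely in cKO (r = 0.722) than in WT (r = 0.947), a difference that was not tested.

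**Figure D3:**
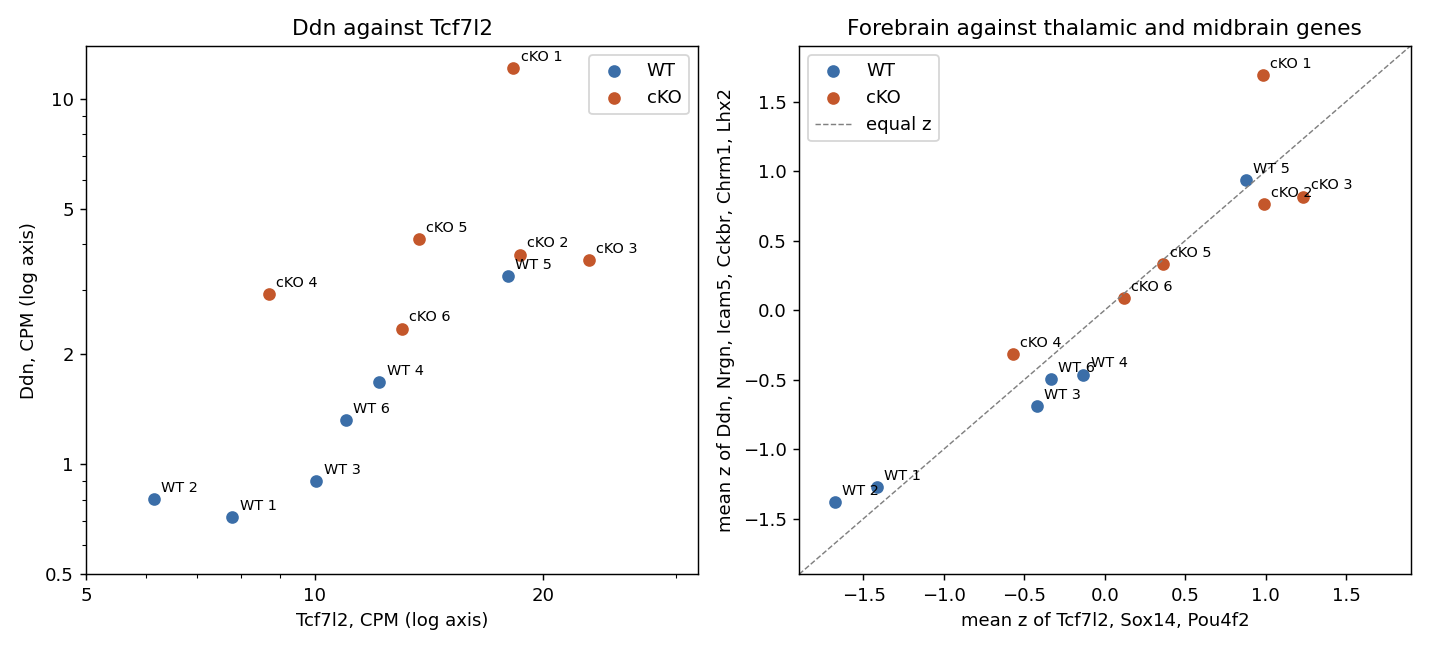
Left, Ddn against Tcf7l2 in CPM (both axes logarithmic). Right, mean z-score of the 6 forebrain genes against that of Tcf7l2, Sox14 and Pou4f2, with a dashed line at equal z. Points are libraries. In the left panel cKO 1, cKO 4 and cKO 5 lie above the course of the WT libraries, with Ddn to Tcf7l2 ratios of 0.663, 0.336 and 0.301.

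Among genes with a mean of at least 1 CPM, the 15 most like the 9-gene score were Miat (r = 0.979), Enc1 (0.976), Cpne5, Doc2a, Cpne6, D430019H16Rik, Tox, Egr3, Nsg2, Slit1, Cbln2, Neurl1b, Sstr1, Scn3a and Shox2 (0.945). Miat is a long non-coding RNA of neurons, Cpne5 and Cpne6 encode copines, which bind membranes in response to calcium, and Egr3 encodes an activity-induced transcription factor. Of the 15, 13 were highest in cKO 1, Sstr1 was highest in WT 5 and Shox2 in cKO 3. By edgeR 0 of the 15 passed the genotype test, although 11 had an unadjusted p under 0.05, and DESeq2 called 1, Egr3. Over all tested genes 14.2% had such a p and 2.64% were called by edgeR. All 9 genes of the score had a higher mean in cKO, so the count of 11 is partly set by the choice and supports nothing.

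The nearest genes differed from member to member. Tcf7l2 was closest to Meis2 (r = 0.986), Shox2 (0.977) and Kcnip2 (0.976), and Nrgn to Enc1 (0.983), Shox2 (0.980) and Doc2a (0.974). Ddn was closest to Egr3 (0.960), Ogfod1 (0.940) and AI506816 (0.928), Lhx2 to Gpr26 (0.953), and Icam5 to Rasgrf2 (0.971). For Pou4f2 the nearest gene was Cdh9 (0.969), for Sox14 Cbln4 (0.961), for Cckbr Asic4 (0.934) and for Chrm1 Kcnq5 (0.904). Shox2, a homeodomain factor, was thus near both Nrgn and Tcf7l2. In all, 147 of 13815 genes reached r of 0.8 with the score and 36 reached -0.8. Of the 147, 94 were highest in cKO 1 (63.9%) and 31 in cKO 3 (21.1%), against 7.35% and 4.76% of all 13815 genes. Both libraries lead the score that chose the 147, so these shares are largely set by the choice.

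Lists of regional markers were set beside the 9 genes. Whether cerebellar cells themselves express genes of the other regional lists was not tested. In bulk tissue the level of a list gene, its r and the list sums therefore cannot be assigned to cells of the named region. The telencephalic list had r = 0.83 between list score and 9-gene score (0.60 within WT, 0.95 within cKO). In that list 5 of 15 tested genes reached r of 0.8 and 13 were positive, with 15 of its 20 genes highest in cKO 1. Camk2a, a kinase of excitatory forebrain synapses, was at 109.7 to 135.8 CPM in WT and 121.3 to 172.9 CPM in cKO (r = 0.926), and Rasgrf2 (0.936), Bcl11b (0.924) and Kcnv1 (0.921) were as close. Not every gene of the list moved this way: Bhlhe22, at 63.8 to 84.8 CPM, had r = -0.707. The list summed to 1175 to 1252 CPM in WT and 1200 to 1257 CPM in cKO, of which Nptx1 alone made a mean of 906 CPM.

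The thalamic list had r = 0.62 with the score of the 9 genes (0.91 within WT, 0.61 within cKO), and the midbrain list 0.51 (0.47 and 0.83). The thalamic list was thus closer than the telencephalic one within WT and further within cKO. Only 2 of 10 thalamic and 3 of 11 midbrain genes reached r of 0.8, with a median gene r of 0.12 and 0.48, and 7 genes of each list had a positive r. Those that followed included Lhx9 (r = 0.921) and Slc17a6, the vesicular glutamate transporter of subcortical neurons (0.859), in the thalamic list, and Sst (0.925) and Tfap2d (0.908) in the midbrain list, whereas Tfap2b (-0.714) and Barhl2 (-0.709) of the midbrain list ran the other way. Like Tcf7l2 and Pou4f2, Lhx9, Slc17a6, Sst and Tfap2d were highest in cKO 3. Slc17a6 reached 48.7 CPM there and 43.3 CPM in WT 5, against 20.3 CPM in cKO 4. The thalamic list summed to 210.6 to 268.7 CPM in WT and 212.8 to 253.0 CPM in cKO, and the midbrain list to 166.0 to 180.1 and 152.7 to 178.3 CPM.

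The other lists differed in sign and size. Striatal genes had r = -0.07, with the peptide genes Tac1 at 0.891 and Penk at -0.509, and sums of 398.1 to 444.9 CPM in WT and 378.2 to 426.9 CPM in cKO. Hindbrain genes had r = 0.47 over only 3 tested genes, and all 9 Hox genes of that list were too low to be tested. That list summed to 3.93 to 5.33 CPM in WT and 3.30 to 6.28 CPM in cKO. Choroid plexus genes had r = -0.08, and all 10 were highest in cKO 6, where the sum reached 1834 CPM against 364.3 to 1186 CPM elsewhere. No listed gene of the table was at 0 in all 12 libraries. Cerebellar neuron markers ran against the 9 genes, at r = -0.84 (-0.67 within WT, -0.91 within cKO), although the median gene r was only -0.41. Single genes of that list ran from -0.788 (Gabra6, which also fell with genotype) to 0.109 (Fat2), and the abundant markers Itpr1 (-0.059), Pcp2 (-0.057) and Cbln3 (0.057) hardly followed the score. The part of tissue from other regions in the levels of the 9 genes was not tested.

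**Figure D4:**
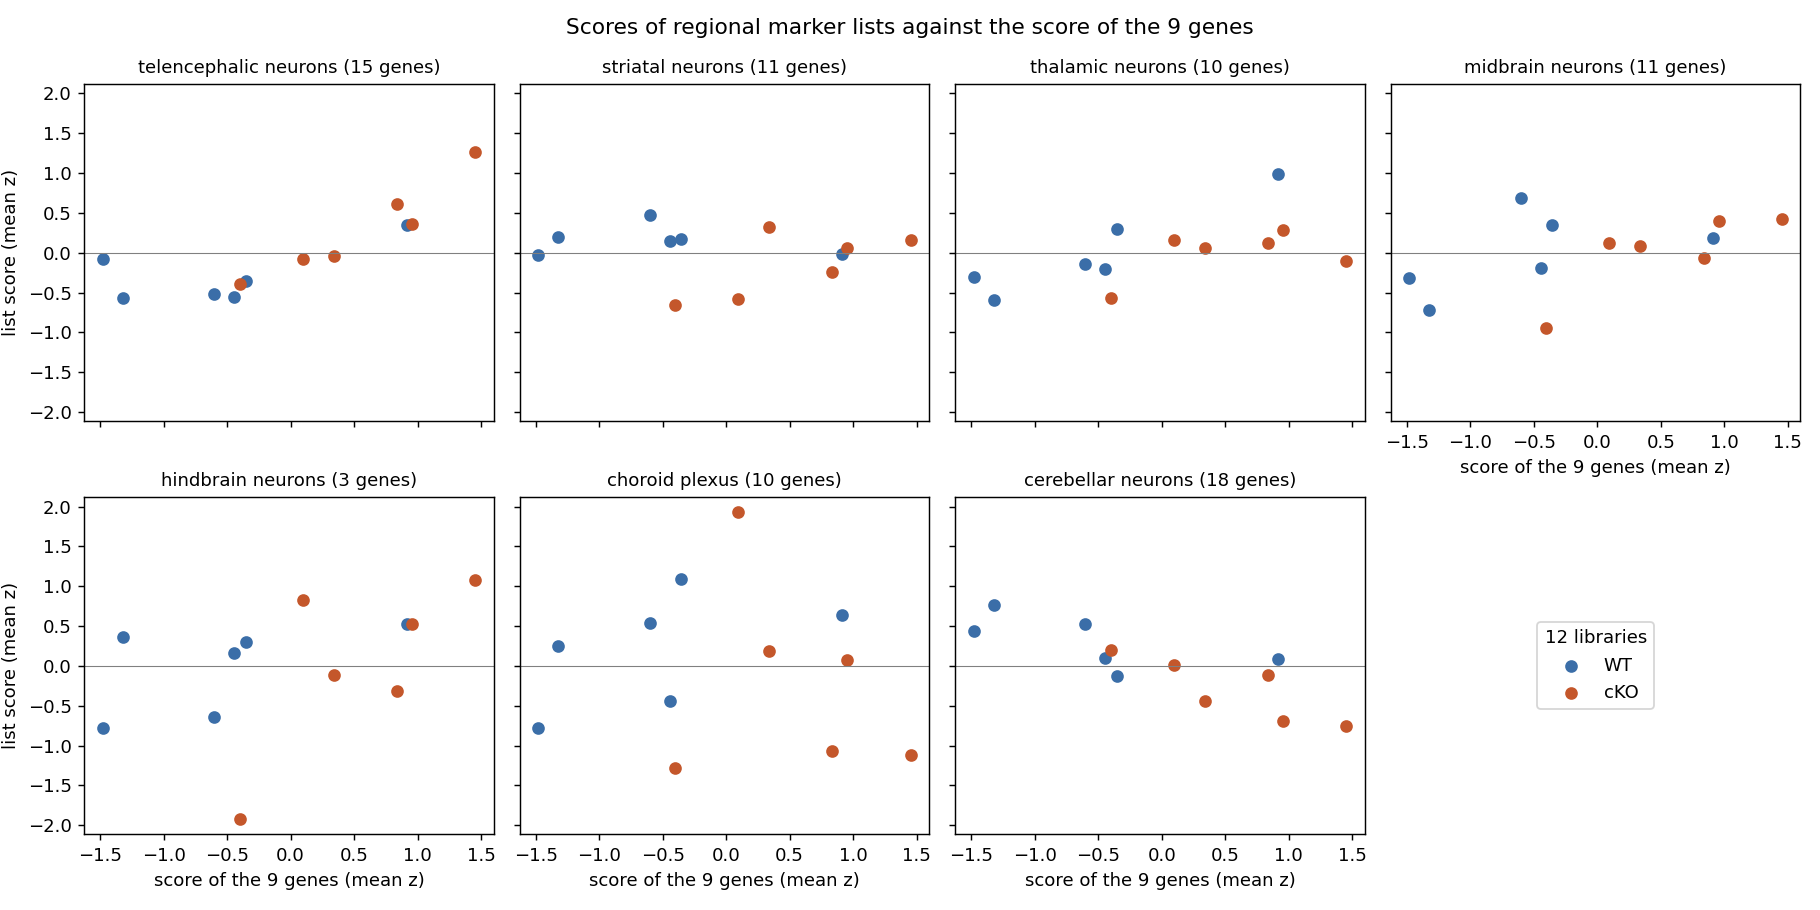
List score (mean z-score of the tested genes of each regional list, y axis) against the score of the 9 genes (x axis), 1 panel per list and 1 point per library. The telencephalic panel rises with r = 0.83 and the cerebellar panel falls with r = -0.84, while the striatal and choroid plexus panels show r of -0.07 and -0.08.

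The genotype contrast asked how cerebellar expression differs between cKO and WT mice. It was fitted on all genes with edgeR's quasi-likelihood test, and its results were known when the 9 genes were proposed, so their count of calls supports nothing. All 9 had a higher mean in cKO. The median of their log2 fold changes was 0.77 against -0.00027 over all tested genes, of which 49.8% were positive. One of the 9, Ddn, was called at an adjusted p under 0.05, where 409 of 15467 genes were (2.64%), 196 of them higher in cKO (1.27%). Without WT 3 the 409 became 272. The groups overlapped in CPM for 9 of the 9, where 2.09% of all tested genes had groups that did not.

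Ddn rose from 1.45 ± 0.966 CPM in WT to 4.81 ± 3.64 CPM in cKO (SD, n = 6 each), a log2 fold change of 1.67 (SE 0.40, 95% interval 0.84 to 2.50, adjusted p = 0.0260, edgeR). All 6 cKO libraries lay above the WT median. The call was lost without any one of WT 1, WT 2, WT 3, WT 4 or WT 6 (adjusted p = 0.0626, 0.0594, 0.0815, 0.0515 and 0.0660, edgeR). It held without cKO 1, the library with 12.1 CPM.

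For the other 8 genes the difference did not pass the test, with adjusted p of 0.225 (Sox14) to 0.329 (Pou4f2) by edgeR, although each had an unadjusted p under 0.05, as did 14.2% of all tested genes. Nrgn averaged 19.8 ± 10.7 CPM in WT and 32.5 ± 12.6 CPM in cKO (SD, n = 6 each), a log2 fold change of 0.68 (95% interval 0.09 to 1.27). Lhx2 had the second largest log2 fold change, 0.89 (0.08 to 1.70), and Tcf7l2 the smallest, 0.53 (0.07 to 0.98). The remaining 5 lay at 0.72 (Icam5), 0.58 (Cckbr), 0.77 (Sox14), 0.81 (Pou4f2) and 0.80 (Chrm1). Without WT 5, Lhx2 and Cckbr were called as well, at log2 fold changes of 1.40 and 0.93 (adjusted p = 0.0362 and 0.0207, edgeR). WT 5 was the highest WT library for all 9 genes, so leaving it out raises their differences by construction. Neither gene was called in any other fit with 1 library left out.

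The authors' deposited table gives log2 fold changes of 0.03 (Lhx2) to 0.07 (Sox14) for the 9 genes. Its adjusted p is 0.197 (Sox14) to 0.462 (Cckbr) for 8 of them, and it lists no p for Ddn. Both analyses called 400 genes in common, all 400 with the same sign, from which the direction of the deposited folds was read. Folds in the authors' deposited table are far smaller than those computed here, and how they were made is not given in the sources used here.

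The genotype difference of the 9 genes was also taken with their own score as a covariate and without the 4 libraries where that score was highest (cKO 1, cKO 3, WT 5 and cKO 2). With the covariate Ddn had a log2 fold change of 0.69 (SE 0.26, adjusted p = 0.320, edgeR), and 6 of the other 8 turned negative. Without the 4 libraries Ddn stood at 1.48 (SE 0.22, adjusted p = 0.00221, edgeR), and the other 8 at 0.30 to 0.89 with no call. Since the score is made of the 9 genes, both fits remove part of the same difference by construction. Over all genes the calls went from 409 to 152 with the covariate, 141 of them shared, and to 157 without the 4 libraries, 145 of them shared.

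**Figure D5:**
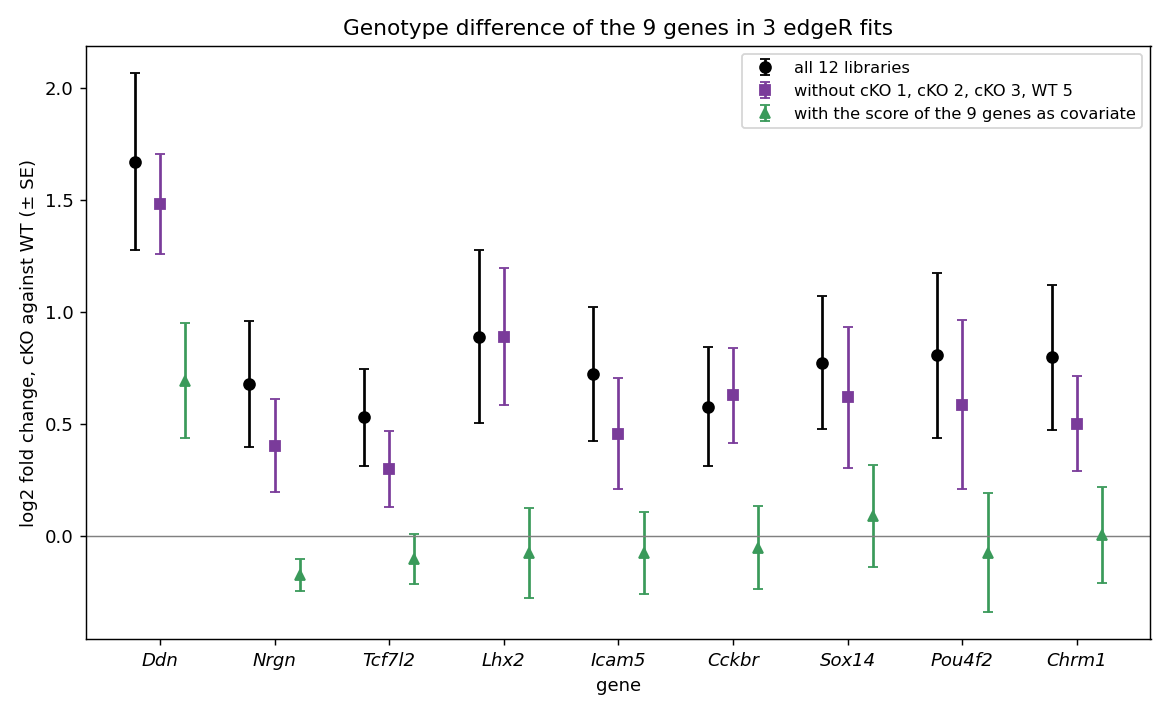
Log2 fold change of each of the 9 genes, cKO against WT, ± SE, in the edgeR fit of all 12 libraries (circles), without the 4 libraries highest in the 9-gene score (squares) and with that score as a covariate (triangles). Ddn stays above 0 in all 3 fits, at 1.67, 1.48 and 0.69, and Nrgn goes to -0.18 with the covariate.

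Relatives and partners of the 9 genes formed a list of 32, of which 27 were tested, 2 rose and 1 fell. Over all tested genes 2.64% were called, and the list was chosen with earlier results known. Camk2b, a calmodulin-dependent kinase subunit, rose by 0.11 on the log2 scale (SE 0.03, adjusted p = 0.0355, edgeR). Gap43, another calmodulin-binding protein, fell by 0.13 (SE 0.03, adjusted p = 0.0337, edgeR). Leaving out 1 library at a time removed the call of Camk2b in 7 of 12 fits and that of Gap43 in 6. Both calls were also lost without the 4 libraries highest in the score (adjusted p = 0.0692 and 0.528, edgeR) and with the score as a covariate (0.213 and 0.313). In these 2 fits Camk2b stood at 0.14 and 0.11 (SE 0.03 and 0.04) and Gap43 at -0.07 and -0.11 (SE 0.03 and 0.04). The median log2 fold change of the list was 0.02. The muscarinic receptor genes Chrm2, Chrm3 and Chrm4 were at 0.18, 0.26 and -0.05, and the LIM-domain binding gene Ldb2 at 0.28, with no call. Of the relatives, Lhx9 (r = 0.921), Ldb2 (0.894) and Chrm3 (0.826) moved most closely with the score, and Lhx1, a factor of Purkinje cells, moved against it (-0.825).

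Calls in the regional lists pointed both ways. Of all 15467 tested genes 2.64% were called by edgeR, 196 higher and 213 lower in cKO. The lists were chosen with earlier results of these data known, so their counts of calls support nothing. Of 15 tested telencephalic genes 1 rose by edgeR, a call that was lost in 7 of the 12 fits with 1 library left out. Of the striatal list only Penk was called, and it fell by 0.25 on the log2 scale (adjusted p = 0.00487, edgeR). Of the 10 thalamic, 11 midbrain, 3 hindbrain and 10 choroid plexus genes tested, 0 passed by edgeR and 0 by DESeq2, with an unadjusted p under 0.05 by edgeR for 1, 3, 0 and 0 of them. In the cerebellar list 4 of 18 genes fell: Eomes, a factor of unipolar brush cells, by 0.88, Gabra6 by 0.38, Pax6 by 0.11 and Zic1 by 0.11 on the log2 scale (adjusted p = 3.06e-07, 1.45e-05, 0.0243 and 0.0208, edgeR). Pax6 lost its call in 4 of these 12 fits and Zic1 in 2, while Eomes, Gabra6 and Penk kept theirs in all 12. In the fits without the 4 libraries and with the score as a covariate, the calls of Eomes and Gabra6 held. Those of Penk (adjusted p = 0.0509 and 0.0607, edgeR), Zic1 (0.390 and 0.319) and Pax6 (0.336 and 0.364) were lost. Penk stood at -0.21 and -0.25 on the log2 scale there (SE 0.05 and 0.06). Zic1 stood at -0.08 in both fits (SE 0.03 in both) and Pax6 at -0.09 and -0.08 (SE 0.03 in both). A lost call alone does not show a smaller difference.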

How the data were processed

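Messenger RNA of 12 cerebella was compared, 6 WT and 6 cKO, grouped by the genotype in the labels. Raw read counts, 1 row per gene symbol, were deposited by the authors, per the file headers. The submitters' processing notes name STAR, DESeq2 and mm10 with no version. How reads were counted, with which strand setting and annotation, is not given in the sources used here. Per the file headers, the authors' deposited DESeq2 table holds a log2 fold change with its SE, a p-value and adjusted p-value, the Wald statistic (a score) and the mean normalised count (a signal). Only its log2 values and p-values were used, with positive taken as higher in cKO from the shared calls.

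Genes were filtered with filterByExpr (15467 of 18394 left), scaled by TMM and tested with edgeR 4.0.16 (glmQLFit, glmQLFTest) in R 4.3.3, with Benjamini-Hochberg adjustment at 0.05 and no covariate. Correlations used log2 CPM with a prior count of 0.5. DESeq2 1.42.0 was an alternative. The test was tested on simulated data. Libraries of a group differed beyond sampling noise (smallest chi-square per degree of freedom 2.68), so each was 1 replicate. Totals were 23.8 to 62.1 M counts. Columns of samples left unmatched numbered 0.

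The 9 members and the lists were chosen with earlier results of these data known. The text names the members, the 15 genes most like their score, the 3 most like each member (of which the text gives some), and from each list the 4 of highest mean and the 4 of highest r. Called list genes complete a count, and Chrm4 and Lhx1, outside this rule, were chosen after their values were seen. Some genes that the rule or a count would name are not reported here. Alternatives were another scaling, DESeq2, no filter, each library left out, and the 2 fits on the member score. Replicate numbers only name libraries in order of deposit.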

Additional observations from a re-analysis of the deposited data

Results flagged for a closer look

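Of 34 groups of 6 libraries, 2 had a library far from the others, by the gap to its neighbour over the range of the group, tested with Dixon's ratio at its 95% critical value. Chance alone flags about 5% of groups. Ddn in cKO 1 was high, with a ratio of 0.658 taken on the log2 scale. It was at 12.126 CPM there, against 2.35 to 4.13 CPM in the other 5 cKO libraries. The score of the midbrain list in cKO 4 was low, at -0.94, against -0.064 to 0.423 in the other 5. That library was also the lowest of the cKO group for 7 of the 9 genes.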

How the results depend on the processing

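All 9 genes kept a positive log2 fold change with DESeq2 size factors, with DESeq2, with no filter, without each library in turn and without the 4 libraries highest in their score. With the score as a covariate 6 turned negative: Nrgn -0.18, Tcf7l2 -0.10, Lhx2 -0.077, Icam5 -0.076, Cckbr -0.053 and Pou4f2 -0.076 (adjusted p = 0.374 to 0.953, edgeR), as the score is built from them. Members called numbered 0 to 3 without single libraries and 0 with the covariate. All genes called ranged from 272 (without WT 3) to 459 (without cKO 5), with 565 by DESeq2, also without its outlier rule, an alternative chosen after seeing the data. They fell to 157 without the 4 libraries and to 152 with the covariate. List correlations with the score moved within cKO for striatal (0.663), hindbrain (0.701) and choroid plexus genes (-0.238), within WT for hindbrain (0.655) and choroid plexus genes (0.535), and without the 2 farthest libraries for hindbrain genes (0.241); the cause was not tested. At 2 or 3 counts, the lowest levels of Sox14, Pou4f2 and Lhx2 are limited by depth. No paired analysis was possible because the labels give no replicate numbers that groups share.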

Other observations

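AI506816, 1 of the 3 genes most like Ddn, lies at chr5:23698296-23712667 on the minus strand (mm10, GENCODE M21). It was at 0.126 to 1.48 CPM in WT, highest in WT 5, and at 2.07 to 10.6 CPM in cKO, highest in cKO 1. The groups thus did not overlap, as in 2.09% of all tested genes. AI506816 was picked for its likeness to Ddn, which was called, so its genotype difference is partly set by the choice. It rose by 3.20 on the log2 scale (SE 0.47, adjusted p = 0.00042, edgeR), and the call held in all 12 fits with 1 library left out (adjusted p = 0.000112 to 0.00294). Its r with the score of the 9 genes was 0.811 within WT and 0.975 within cKO. With that score as a covariate its log2 fold change was 1.95 (SE 0.20, adjusted p = 2.32e-05, edgeR). Ogfod1, also among the 3, spanned only 92.4 to 101 CPM and was not called (adjusted p = 0.244, edgeR).

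Kcnv1, a potassium channel subunit gene of the telencephalic list, had 1 to 15 counts in WT, with 15 in WT 5, and 15 to 42 in cKO, with 42 in cKO 1. It was not called (log2 fold change 1.84, SE 0.52, adjusted p = 0.0709, edgeR). Ttr, the transthyretin gene of the choroid plexus, was at 117.5 to 929.8 CPM over the 12 libraries with the highest level in cKO 6, and its r with the score was -0.09.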
